A study of Arabidopsis thaliana with 3 samples.

Results

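The MYB-CC factors of Arabidopsis thaliana described here were FE, MYR1, MYR2, PHR1, PHL1, PHL2, PHL3 and PHL4. They were found as the probes whose transcript accession belongs to 1 of these 8 loci, which gave 14 of the 43603 gene probes on the array and 8 of the 25383 loci that had a probe. RNA of whole seedlings on day 7 was compared on 3 two-colour Agilent arrays. On 2 biological replicate arrays, untreated fe-1 mutant seedlings (Cy5) were set against untreated wild type of the L.er accession (Cy3), both collected at zeitgeber time 15 h. On 1 further array, seedlings of 35S::FE-GR line #5 submerged for 2 h in 1 µM dexamethasone (Dex, Cy5) were set against mock-treated seedlings of the same line (Cy3), both at zeitgeber time 14 h. All groups were grown in long days at 22 °C on medium with 1% sucrose. FE-GR joins FE to the hormone-binding part of the glucocorticoid receptor, which holds the protein outside the nucleus until Dex is added, and the 35S promoter drives it in most tissues, not in the phloem alone. The labels name 1 transgenic line, give neither its parent accession nor the lesion of fe-1, and list no Dex-treated plants without the transgene, so that Dex itself and the activated FE-GR cannot be told apart.

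MYB-CC proteins carry a single MYB repeat for DNA binding and a coiled coil through which they pair. PHR1 is the central activator of phosphate starvation genes, and SPX proteins hold it back when phosphate is ample. FE, also called ALTERED PHLOEM DEVELOPMENT (APL), is needed for phloem identity and promotes the florigen gene FT in companion cells. Since all 4 RNA sources were whole seedlings, fewer cells of a type and less RNA per cell cannot be told apart.

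The 14 probes were well above background in both channels of all 3 arrays, with no saturated or outlier spot. Levels below are log2 normalized signals of the same probe, and ratios are log2 of fe-1 over wild type or of Dex over mock. A ± gives the SD of 2 arrays, and tests are limma's with Benjamini-Hochberg adjustment over all 33476 probes kept for fe-1, and a probe passed at an adjusted p below 0.05. The Dex comparison had 1 array, so its ratios have no error and no test, and probes at 2-fold or more are counted. Over the 3 arrays, between 72.1% and 78.1% of gene spots were well above background in a channel, and the number of arrays limits the precision. Markers of leaf, root hair, companion cell and sieve element, 8 genes in all, were well above background in every channel. The root hair genes COBL9, EXPA7 and EXPA18 read -1.305, -1.05 and -0.86 in fe-1 over wild type, and the leaf genes RBCS1A, LHCB1.3 and LHCB1.4 read 0.56, 0.45 and -0.04. On the Dex array the same 6 genes lay between -0.31 and 0.62. These values are of each gene's brightest probe, and other probes of LHCB1.3 and LHCB1.4 ran from -0.41 to 0.48 in fe-1 and from -0.42 to 1.09 with Dex. Other probes of RBCS1A ran from 0.04 to 0.56 in fe-1 and from -0.01 to 0.59 with Dex. The companion cell gene SUC2 and the sieve element gene SEOB read -0.06 and -0.13 in fe-1, and 3.20 and -0.14 with Dex. The part of these markers in the results below was not tested.

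FE (AT1G79430), the gene that the fe-1 mutant and the FE-GR transgene are named for, has 3 probes. Probe A_84_P12363, for the transcript NM_106591, had levels of 9.84 and 9.71 in fe-1 against 9.99 and 9.91 in wild type. Its 2 fe-1 levels lay below both wild-type levels, with a ratio of -0.17 ± 0.031 (n = 2 arrays, limma adjusted p = 0.0416). Of the 14 probes, 1 passed the test, and it was this one, against 19.2% of all kept probes in either direction (8.84% higher and 10.3% lower). The call was lost under 7 of the 10 alternative settings that gave a test. Probe A_84_P849979, for the same transcript, had 7.94 and 8.10 in fe-1 against 8.01 and 8.05 in wild type, a ratio of 0.00 ± 0.084 (limma adjusted p = 0.962). Probe A_84_P824991, for the other FE transcript NM_179574, had 6.59 and 6.85 in fe-1 against 6.61 and 6.71 in wild type, a ratio of 0.06 ± 0.11 (limma adjusted p = 0.503). At both of these probes the groups overlapped. The 95% limma intervals for the ratio ran from -0.29 to -0.06 at the first probe, from -0.13 to 0.12 at the second and from -0.07 to 0.18 at the third. The 3 probes thus read FE transcript in fe-1 seedlings at 0.887, 0.997 and 1.04 of its wild-type level.

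In the 35S::FE-GR line every FE probe was bright with both treatments. The transgene holds FE sequence, and where the probes lie in the FE transcript is not known. RNA of the FE gene itself and RNA of the transgene therefore cannot be told apart at these probes. A_84_P12363 had 13.53 with Dex against 13.79 with mock, A_84_P849979 had 12.52 against 12.79, and A_84_P824991 had 11.05 against 11.36. The Dex ratios of -0.26, -0.26 and -0.31 were close to each other, and with median centring in place of loess they read 0.10, 0.08 and 0.03, so they have no settled direction. That setting moved the median of all kept probes on the array to 0.17, against 0.01 with loess. The mock signals were 3.84, 4.76 and 4.70 log2 units above the mean wild-type signals of the same probes. Over 32183 probes kept in both comparisons this difference had a median of 0.42, and 90% of probes lay between -0.59 and 1.45. Only 54 probes, the 3 of FE among them, had a difference at least as large as the lowest FE value. Within its own channel, A_84_P824991 lay at the 84.8th percentile of gene probes with mock against the 34.9th in wild type, A_84_P849979 at the 93.6th against the 52.4th, and A_84_P12363 at the 96.7th against the 76.8th. The other 11 MYB-CC probes differed between mock and wild type by 0.13 to 1.17 in level and by at most 7.43 percentile points. These arrays were scanned separately, and genotype, hour and treatment differed between mock and wild type, so no test was made.

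**Figure D1:**
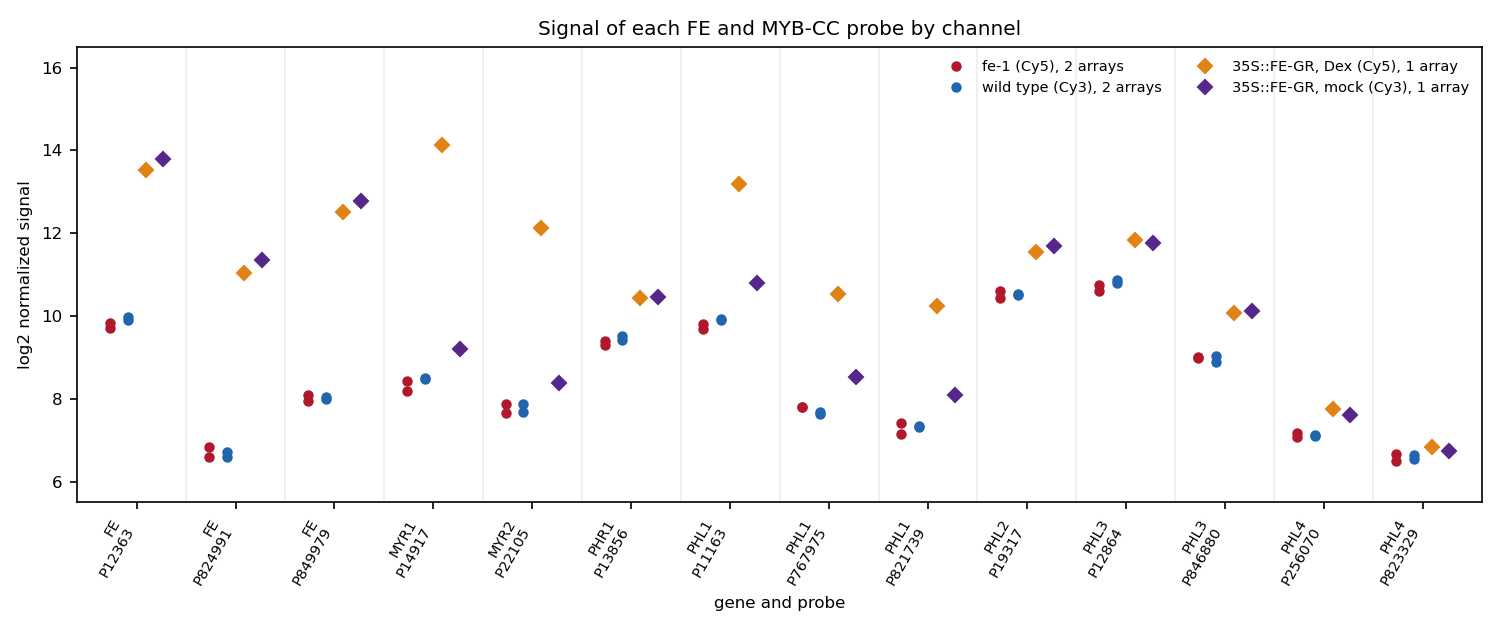
The plot gives the log2 normalized signal of each of the 14 probes (x axis, gene and probe) in fe-1 and wild type on 2 arrays each and in Dex- and mock-treated 35S::FE-GR on 1 array, 1 point per array and channel. FE is bright with both Dex and mock (11.05 to 13.79), while MYR1, MYR2 and the 3 PHL1 probes lie at 10.24 to 14.13 with Dex and at 8.10 to 10.79 with mock.

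MYR1 (AT5G18240) and MYR2 (AT3G04030) encode a pair of closely related factors that act redundantly as repressors of flowering when light is low. MYR1 had a level of 14.13 with Dex against 9.20 with mock. The scanner read a median spot signal of 24767 over a local background of 62 in the Dex channel, and 389.5 over 18 in the mock channel. The ratio of 4.93 is 30.5-fold, the eighth highest of the 33358 probes kept on that array (rank 8). MYR2 had 12.14 with Dex against 8.39 with mock, a ratio of 3.74 or 13.4-fold, at rank 27. Its spot signals were 6196 over a background of 68.5 with Dex and 210 over 17 with mock. Of all kept probes, 2.99% reached 2-fold upward and 2.39% downward. Each gene of the pair is read from 1 probe.

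In fe-1 neither gene of the pair passed the test. MYR1 had levels of 8.19 and 8.43 in fe-1 against 8.48 and 8.51 in wild type, so both fe-1 levels lay below the wild-type ones. Its ratio of -0.19 ± 0.15 (n = 2 arrays, limma adjusted p = 0.0538) did not pass, and the values were -0.29 on replicate 1 and -0.08 on replicate 2. It passed with only probes well above background in all 4 channels (limma adjusted p = 0.0444) and with a trended prior (limma adjusted p = 0.04996), and it read -0.06 with the spots of non-uniform background kept (limma adjusted p = 0.795). MYR2 had 7.89 and 7.65 in fe-1 against 7.87 and 7.68 in wild type, with overlapping groups and a ratio of -0.01 ± 0.029 (limma adjusted p = 0.944). The 95% interval for MYR2, from -0.12 to 0.11, holds no change past 1.09-fold in either direction. Dyes were not swapped on any array, and the part of the dye in these ratios was not tested.

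PHR1 (AT4G28610) itself differed little between Dex and mock. Its single probe had 10.44 with Dex against 10.45 with mock, a ratio of -0.01, which read 0.31 with median centring. In fe-1 it had 9.39 and 9.29 against 9.51 and 9.43 in wild type. The fe-1 levels were the lower ones on both arrays, by -0.13 ± 0.0049 (n = 2 arrays, limma adjusted p = 0.109), which did not pass.

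PHL1 (AT5G29000), the paralog that shares work with PHR1 in the phosphate starvation response, was higher with Dex at all 3 of its probes. A_84_P11163, for NM_122784, had 13.19 with Dex against 10.79 with mock, a ratio of 2.40 or 5.28-fold. A_84_P767975 and A_84_P821739 are both for NM_001125827. The first of these had 10.54 with Dex against 8.54 with mock (2.00, 3.99-fold) and the other had 10.24 against 8.10 (2.14, 4.40-fold). The 3 ratios, at ranks 157, 275 and 232, spanned 0.40 on the log2 scale. In fe-1 the same probes did not share a direction. A_84_P11163 had 9.69 and 9.81 in fe-1 against 9.93 and 9.90 in wild type (-0.17 ± 0.11, limma adjusted p = 0.0595). A_84_P767975 had 7.81 and 7.80 in fe-1 against 7.68 and 7.64 in wild type (0.14 ± 0.018, limma adjusted p = 0.0780). A_84_P821739 had 7.15 and 7.42 in fe-1 against 7.32 and 7.33 in wild type (-0.04 ± 0.18, limma adjusted p = 0.678). None of the 3 passed, and A_84_P11163 passed with only probes well above background in all 4 channels (limma adjusted p = 0.0499).

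PHL2 (AT3G24120), PHL3 (AT4G13640, named UNE16 in the RefSeq gene table) and PHL4 (AT2G20400) are further PHR1-like factors, and PHL2 and PHL3 are known activators of phosphate starvation genes. PHL2 had 11.54 with Dex against 11.69 with mock, a ratio of -0.16. The PHL3 probe A_84_P12864 had 11.84 with Dex against 11.76 with mock (0.08), and A_84_P846880 had 10.07 against 10.12 (-0.06). The PHL4 probes A_84_P256070 and A_84_P823329 read 0.16 and 0.11. All 5 ratios were smaller in size than the median size over kept probes, 0.18, and they read 0.18, 0.42, 0.25, 0.20 and -0.04 with median centring, so that 3 of them changed sign. In fe-1, PHL2 had 10.43 and 10.60 against 10.52 and 10.53 in wild type, and its groups overlapped (-0.01 ± 0.11, limma adjusted p = 0.901). A_84_P12864 of PHL3 had 10.76 and 10.62 in fe-1 against 10.87 and 10.80 in wild type, both lower (-0.15 ± 0.049, limma adjusted p = 0.0813), while A_84_P846880 read 0.04 ± 0.064 (limma adjusted p = 0.686). The PHL4 probes read 0.00 ± 0.078 and -0.02 ± 0.030, and neither passed.

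With Dex, MYR1, MYR2 and PHL1 were 3.99- to 30.5-fold higher at all 5 of their probes, and the other 9 probes lay between -0.31 and 0.16. Among those 9, the FE probes do not separate RNA of the FE gene from RNA of the transgene. By the brightest probe of each gene, 3 of 8 genes (37.5%) were at least 2-fold higher and 0 were at least 2-fold lower, against 3.58% and 2.95% of the 20494 genes kept on that array. The same 5 probes were at least 2-fold higher with the scanner's processed signals, in the series value table, with a normexp offset of 16 and with median centring. In fe-1, 1 of the 8 genes, FE, was called lower and 0 were called higher by the brightest probe, against 11.8% and 9.27% of 20680 genes.

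**Figure D2:**
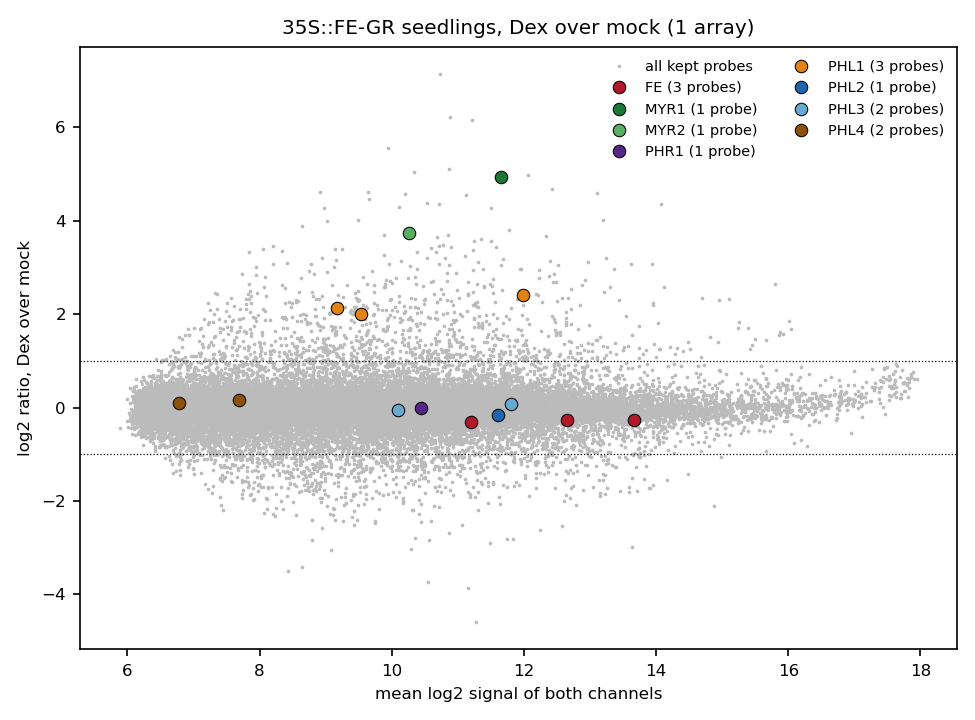
Each point is 1 probe on the Dex array, with the mean log2 signal of both channels on the x axis and the log2 ratio of Dex over mock on the y axis. Grey points are all 33358 kept probes, coloured points the 14 MYB-CC probes, and dotted lines mark 2-fold. MYR1 (4.93), MYR2 (3.74) and the PHL1 probes (2.00 to 2.40) stand above the line, and all others lie within it.

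**Figure D3:**
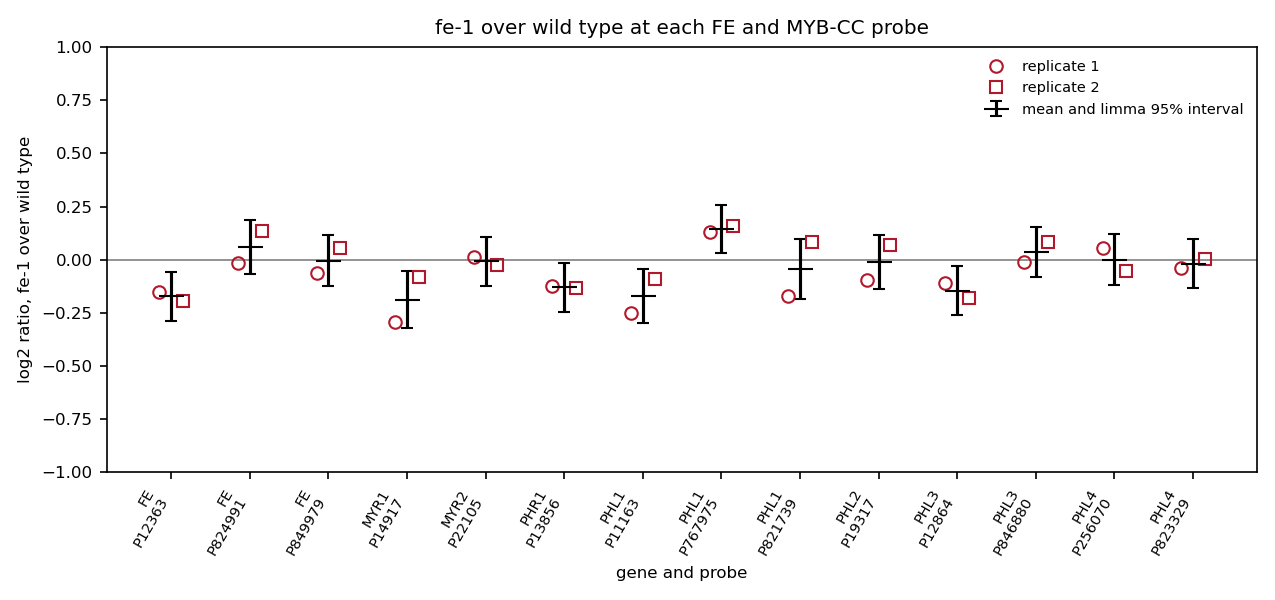
The y axis gives the log2 ratio of fe-1 over wild type at each of the 14 probes, with open symbols for the 2 replicate arrays and bars for the mean and its 95% limma interval, not adjusted for the number of probes. All means lie between -0.19 and 0.14, and only the interval of the first FE probe belongs to a call after adjustment.

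Of the 7 other MYB-CC loci on the list, 6 had a probe, and the seventh, AT3G04450, had no matched probe. AT1G69580 was at 2.32 and AT5G06800 at 1.42 with Dex, so that 2 of 6 were at least 2-fold higher, against 3.58% of all genes. The other Dex ratios were 0.04 for AT2G01060, -0.07 for AT3G12730, -0.15 for AT5G45580 and -0.24 for AT3G13040. In fe-1, AT3G12730 fell by 0.78 ± 0.00046 (limma adjusted p = 3.23e-06) and AT5G06800 fell by 0.26 ± 0.032 (limma adjusted p = 0.00575). These 2 of 6 compare with 11.8% of all genes called lower. The remaining 4, AT5G45580 (-0.13 ± 0.034), AT1G69580 (-0.11 ± 0.0099), AT2G01060 (-0.09 ± 0.043) and AT3G13040 (0.07 ± 0.080), did not pass. The median over the 6 was -0.12 in fe-1 and -0.02 with Dex, against -0.01 and 0.00 over all genes.

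The SPX genes encode the phosphate sensors that bind PHR1, and all 4 were higher with Dex. SPX1 read 4.99, SPX2 1.95, SPX4 1.57 (its other probe 0.69) and SPX3 1.41. PHO2, the ubiquitin-conjugating enzyme that limits phosphate uptake, read 1.10 (other probe 0.61), and NLA, a ubiquitin ligase for phosphate transporters, read -1.51. The inositol pyrophosphate kinase genes VIH1 and VIH2 and the SUMO ligase gene SIZ1 lay between -0.01 and 0.29. These 9 genes form the list called PHR1 regulators here, though PHO2 and NLA are named for phosphate uptake and its transporters, not for PHR1. Of the 9, 5 were at least 2-fold higher and 1 was at least 2-fold lower, against 3.58% higher and 2.95% lower over all genes. The lower gene was NLA, and the median of 1.10 was the value of PHO2. In fe-1, SPX1 rose by 0.25 ± 0.030 (limma adjusted p = 0.0072) and SPX4 fell by 0.18 ± 0.014 (limma adjusted p = 0.0349, other probe -0.05), while 7 did not pass. With 1 of 9 in each direction, the share was near the 9.27% higher and 11.8% lower of all genes.

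Genes listed here as PHR1 targets were mostly higher with Dex, where PHR1 itself read -0.01. Their control by PHR1 was not tested. Of 18, 12 were at least 2-fold higher, 2 were at least 2-fold lower and the median was 1.397, against 3.58% higher and 2.95% lower over all genes. The phosphatase genes PEPC1 and PS2 read 6.22 and 6.16 (other probes of PS2 4.47 and 4.62), the galactolipid synthase genes MGD2 and MGD3 4.38 and 2.81, the ribonuclease gene RNS1 4.36, and the phosphate exporter gene PHO1;H1 4.29. The phosphodiesterase gene GDPD1 read 4.01 (other probe 2.33) and the purple acid phosphatase gene PAP17 3.24. The target mimic RNAs IPS1 and AT4, known to be induced by low phosphate, read -0.04 and -0.22. The 2 lower genes were the transporter gene PHT1;4 at -1.26 (other probe -0.86) and PHO1 at -1.09 (other probe -0.96). In fe-1, 1 of 18 rose, 2 fell and 15 did not pass, with a median of 0.00. These shares were no higher than the 9.27% higher and 11.8% lower of all genes. At most targets the 2 arrays had opposite signs, and each of these was positive on replicate 1 and negative on replicate 2. Every target but PPCK2 (0.13 and 0.15) read higher on replicate 1 than on replicate 2. The median of 0.00 is thus of means over 2 arrays that differed in 1 direction for nearly the whole list. On replicates 1 and 2, IPS1 read 0.45 and -0.64, AT4 0.66 and -0.52, MGD3 0.67 and -0.65, and PEPC1 0.47 and -0.32. Their SDs ran from 0.56 to 0.93, against a median SD of 0.052 over all genes. Other targets, such as RNS1 (-0.79 and -1.11), kept their sign. RNS1 fell by 0.95 ± 0.23 (limma adjusted p = 8.99e-06) and SQD2, of sulfolipid synthesis, by 0.23 ± 0.21 (limma adjusted p = 0.0427), and PS2 rose by 0.55 ± 0.59 (limma adjusted p = 0.0186), with a wide spread between the arrays.

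Among 12 phloem and florigen genes tied to FE, 4 were at least 2-fold higher with Dex and 0 were at least 2-fold lower. Over all genes these shares were 3.58% and 2.95%. The median was 0.29, which read 0.905 with the scanner's processed signals. The count of higher genes was 6 with processed signals, 6 in the series value table and 5 with median centring. The 4 were SUC2 (3.20, other probes 2.63 and 2.65), NAKR1 (2.60, other probes 1.55 and 1.74), FT (1.34, other probe 1.02) and FTIP1 (1.29). NEN2 read 0.96 (other probe 0.83), short of 2-fold. The enucleation factor genes NAC045 and NAC086, known to act downstream of FE in sieve elements, read 0.27 and 0.30. In fe-1, 5 of the 12 fell, 1 rose and 6 did not pass, with a median of -0.12, against 11.8% of all genes called lower and 9.27% called higher. The 5 were FT (-1.20 ± 0.046, other probe -0.66), FTIP1 (-0.55 ± 0.023), SEOA (-0.48 ± 0.18), NAKR1 (-0.28 ± 0.068, other probes -0.12 and -0.11) and TSF (-0.24 ± 0.081). Of these, FT and TSF were not well above background in fe-1 on either array. NEN2, an exonuclease gene of sieve element enucleation, rose by 0.28 ± 0.069 (limma adjusted p = 0.00507, other probe 0.17). NAC045 and NAC086 read 0.09 ± 0.12 and 0.04 ± 0.053 and did not pass.

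**Figure D4:**
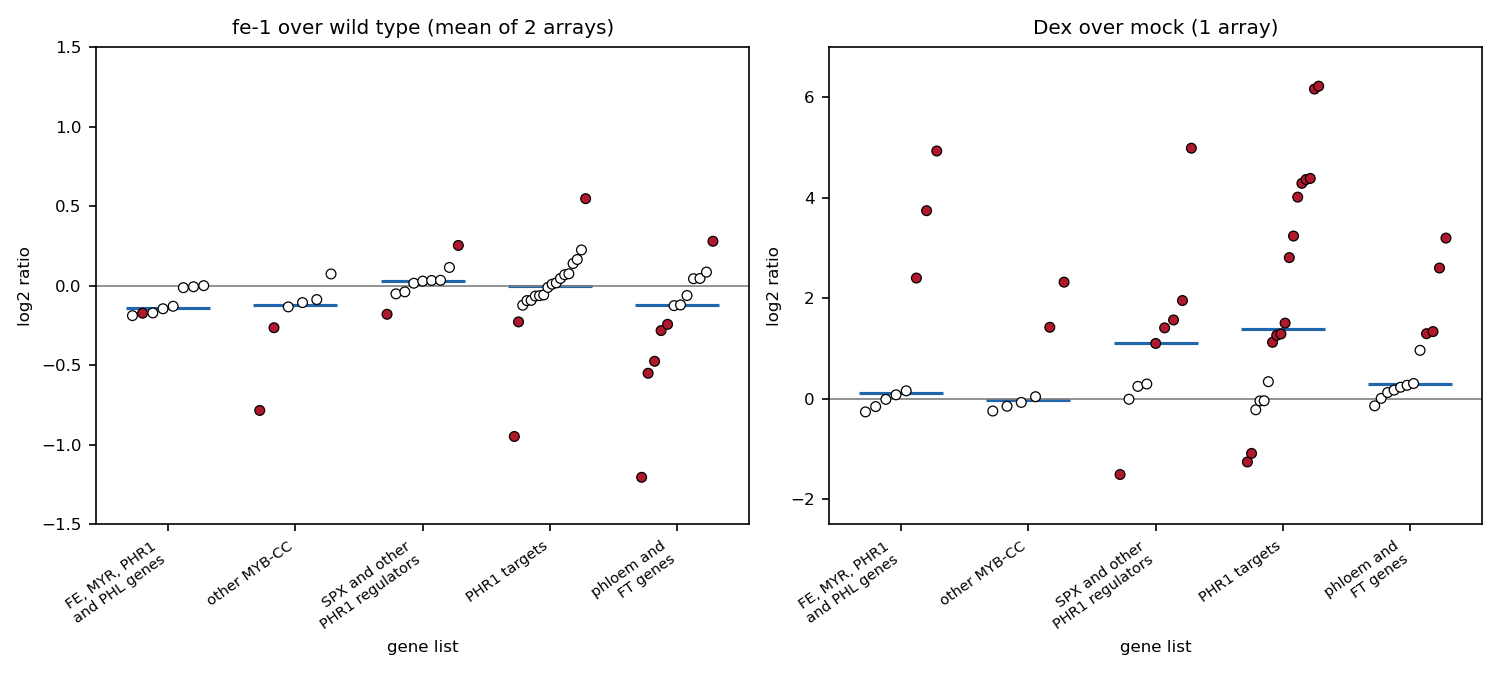
Each point is 1 gene read from its brightest probe, with the log2 ratio of fe-1 over wild type on the left and of Dex over mock on the right (y axes differ), by gene list on the x axis. Blue lines are list medians, and filled points passed limma's test (left) or were at least 2-fold from mock (right). With Dex, medians are 1.397 for the list of PHR1 targets and 1.10 for the list of PHR1 regulators, which also holds PHO2 and NLA. No list median exceeds 0.14 in size in fe-1.

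The genes whose ratios over the 3 arrays were nearest to those of MYR1, MYR2 and PHL1 were found by Euclidean distance among 19972 genes. Nearest to MYR1 were AT3G25790 (distance 0.47), AT4G15670 (0.49), AT4G15700 (0.54), AT5G66440 (0.54) and ROXY2 (0.56), with Dex ratios between 4.55 and 4.69. In fe-1 they were less alike, where MYR1 read -0.29 and -0.08 on replicates 1 and 2. AT3G25790 (-0.11 and -0.30) and AT4G15700 (-0.58 and -0.47) were lower on both arrays. AT4G15670 (0.05 and 0.10), AT5G66440 (0.09 and 0.13) and ROXY2 (0.10 and 0.08) were higher on both. Nearest to MYR2 were UCP5 (0.27), PROT1 (0.32), AT5G46230 (0.32), AT5G47130 (0.34) and AT1G70990 (0.36), with Dex ratios between 3.47 and 3.80. Their fe-1 ratios ran from -0.26 to 0.24, against 0.01 and -0.03 for MYR2. Nearest to PHL1 were AT4G37180 (0.05), AT4G39780 (0.07), PSD2 (0.08), RLP6 (0.10) and TBP1 (0.11), at Dex ratios of 2.31 to 2.46. AT4G15670 and AT4G15700 encode closely related glutaredoxins, so their separate values are uncertain.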

How the data were processed

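Seedling RNA was measured on 3 two-colour arrays, grouped by sample title. Per the labels, Cy5 held fe-1 or Dex RNA, Cy3 held wild-type or mock RNA, and no dyes were swapped. Each scanner file, as deposited, lists a spot intensity and a local background for either channel. Per the file headers the software was Agilent Feature Extraction, version 10.7.3.1, and the submitters' processing notes give it as 10.7. They also hold processed signals and a log10 ratio, deposited per spot. The authors' series value table is on a log2 scale, Cy5 over Cy3, within 0.005 of that log10 ratio after conversion, and each of its columns has a median of 0. Later steps are not given in the sources used here.

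Median spot and background signals were corrected with normexp (offset 50) and loess within each array in limma 3.58.1 (R 4.3.3). Of 43803 gene spots, 8 to 43 an array were left out as outliers or for a non-uniform local background (32 on fe-1 replicate 1). Fe-1 levels were scaled with Aquantile. Accessions of 34285 probes matched a RefSeq locus (TAIR10.1, used for names only), and 9318 did not. A probe needed a signal well above background in 2 or more of 4 channels for fe-1, or in 1 or more for Dex. Ratios of fe-1 over wild type were tested with lmFit and eBayes (1 residual and 9.78 prior degrees of freedom), after tests on simulated data. The labels describe the fe-1 arrays as biological replicates, and the p-values rest on these 2 only. With 9.78 prior against 1 residual degree of freedom, each probe's variance came mostly from all kept probes. A p-value thus reflects the spread of that probe's own 2 ratios only in part.

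The genes and lists were chosen with earlier results of these data known. Named genes were all members and other MYB-CC genes, up to 8 a list by size among those called in fe-1 or past 2-fold with Dex, and the 5 nearest genes. A few that fall outside this rule, such as SQD2, IPS1, AT4, PHT1;4, PHO1, NAC045, NAC086, VIH1, VIH2, SIZ1 and the markers, were named after their values were seen. Lists were counted by each gene's brightest kept probe. Alternatives were the scanner's processed signals, the value table, an offset of 16, median centring, keeping non-uniform spots, 2 other filters, gene-level rows, a trended prior and leaving out a replicate.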

Additional observations from a re-analysis of the deposited data

How the results depend on the processing

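The count of called probes in fe-1, 6412 (2958 higher, 3454 lower), was 167 (25 higher, 142 lower) with the scanner's processed signals, 2669 (1077 higher, 1592 lower) with a normexp offset of 16, and 93 (14 higher, 79 lower) with the non-uniform background spots kept. It was 0 in the series value table by limma, with 8837 probes at an unadjusted p under 0.05. With genes in place of probes it was 4189 by the brightest probe and 3552 by the mean of probes, where fewer features were tested. With median centring, higher probes were 53.5% of the calls, against 46.1%. Of the 14 MYB-CC probes, 1 was called, and 0 were called with processed signals, the value table, the offset of 16, median centring, the non-uniform spots kept, no filter, or gene means. There were 3 called with probes well above background in all 4 channels and 2 with a trended prior. The first FE probe kept its sign throughout (-0.21 to -0.04, the last for the mean of the FE probes, limma adjusted p from 0.0345 to 0.602). Leaving out either fe-1 replicate leaves 1 array and no test: FE then read -0.19 and -0.15, and MYR1 -0.08 and -0.29. Called genes fell to 0 with processed signals and in the value table for other MYB-CC genes (2 called), PHR1 regulators (2) and PHR1 targets (3). For phloem and florigen genes (6 called) the counts were 1 and 0. PHR1 regulators had 1 call with median centring and 1 by mean of probes, and PHR1 targets 1 by mean of probes. The cause of these differences was not tested. On the Dex array, 996 kept probes were at least 2-fold higher and 798 lower, against 1508 and 516 with median centring, 1660 and 1765 with processed signals, and 1672 and 1784 in the value table. The 5 Dex increases held in all 4 alternatives, with MYR1 at 4.93 to 5.27, MYR2 at 3.74 to 4.06 and the PHL1 probes at 2.00 to 2.74. The fe-1 test is on ratios within an array, so it already pairs fe-1 with wild type. No further pairing was possible, because a replicate block would leave the 2 ratios no residual degrees of freedom, and the Dex comparison has 1 array.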

Other observations

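The fe-1 and Dex comparisons have the same dye orientation and no sample in common. Over 19979 genes kept in both, 160 were called lower in fe-1 and were at least 2-fold higher with Dex, which is 6.82% of the 2345 lower in fe-1 and 22.5% of the 712 higher with Dex. Those higher in both numbered 93, or 4.92% of the 1890 higher in fe-1 and 13.1% of the 712. Of the 596 at least 2-fold lower with Dex, 122 (20.5%) were called lower in fe-1 and 96 (16.1%) higher. Over all 19979 genes, 11.7% were called lower and 9.46% higher, so calls in fe-1 of either direction were more frequent among genes past 2-fold with Dex, in either direction, than over all genes. Of the lists described above, AT5G06800, SPX4, RNS1, SQD2, FT, FTIP1 and NAKR1 were in the first set, and SPX1 and PS2 in the second. FE, MYR1, MYR2, PHR1 and the PHL genes were in neither. These genes were picked out after their values were seen, and no test was made.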
